A study of Mus musculus with 2 samples.

Results

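The 10 keratin genes described here form the filament skeleton of the epithelium that covers the front of the mouse eye. They were taken from the deposited table of 47644 genes by gene symbol, and each symbol matched 1 row. By the role usually given to them they fall into basal keratins (Krt5, Krt14, Krt15), the keratin of corneal epithelium (Krt12), keratins typical of conjunctiva (Krt19, Krt4, Krt13) and keratins known in skin for their induction after wounding (Krt6a, Krt16, Krt17). RNA was sequenced from whole eyeballs of C57BL/6 mice in 1 sample of oxygen-induced retinopathy (OIR) and 1 control sample. OIR mice were placed under hyperoxia on day 7 for 5 days and then kept in ordinary air, and their eyes were collected on day 17. For the control no separate age is stated, and for neither sample is the number or sex of animals stated. An eyeball sample holds cornea and conjunctiva only as far as dissection left them on the globe, and how much was kept is not stated. The series was made to address long-lasting loss of visual function in this model.

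Keratins are the intermediate filaments of epithelial cells. A filament is built from pairs of 1 type I and 1 type II keratin. In the mouse the type II genes lie on chromosome 15 and the type I genes together on chromosome 11, except for Krt18, a type I gene on chromosome 15. Basal cells of stratified epithelia make Krt5 with Krt14 or Krt15, corneal epithelium adds Krt12, and the non-cornified epithelia of conjunctiva and mouth make the pair Krt4 and Krt13. Of the 10 genes, 7 are type I and 3 (Krt5, Krt4, Krt6a) are type II.

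RefSeq promoter windows (build GRCm38.p6, from 250 bases before to 50 after the start) were found for 4 of the 10 genes. The 3 windows shown are those of Krt5, Krt12 and Krt13, 1 each of the basal, corneal and conjunctival groups, whose start lay within 14 bases of the gene's start in the deposited table; the Krt14 window lay 1518 bases from it and another Krt13 window 989 bases, and neither is shown. They lie at chr15:101712856-101713155, chr11:99422210-99422509 and chr11:100121517-100121816, all on the minus strand, and capitals mark the letters ATAAA found between 40 and 20 bases before the start.
Krt5: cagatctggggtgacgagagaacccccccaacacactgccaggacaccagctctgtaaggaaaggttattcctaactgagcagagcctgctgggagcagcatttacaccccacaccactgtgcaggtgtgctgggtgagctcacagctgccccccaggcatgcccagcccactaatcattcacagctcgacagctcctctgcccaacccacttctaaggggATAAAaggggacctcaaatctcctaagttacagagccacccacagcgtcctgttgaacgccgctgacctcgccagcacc
Krt12: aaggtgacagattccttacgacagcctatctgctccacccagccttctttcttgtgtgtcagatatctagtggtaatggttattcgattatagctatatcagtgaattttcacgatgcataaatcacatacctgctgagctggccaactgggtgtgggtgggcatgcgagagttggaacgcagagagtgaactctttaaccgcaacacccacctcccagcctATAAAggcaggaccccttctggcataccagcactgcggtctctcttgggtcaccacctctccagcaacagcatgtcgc
Krt13: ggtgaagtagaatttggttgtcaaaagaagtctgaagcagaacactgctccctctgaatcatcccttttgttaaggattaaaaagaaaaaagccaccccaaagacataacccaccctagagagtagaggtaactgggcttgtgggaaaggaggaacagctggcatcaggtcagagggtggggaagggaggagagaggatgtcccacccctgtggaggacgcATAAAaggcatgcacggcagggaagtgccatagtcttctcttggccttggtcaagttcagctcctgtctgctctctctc
These 3 windows carried ATAAA, starting 29, 28 and 29 bases before the start in Krt5, Krt12 and Krt13, a place where 3.89% of all 32817 promoter windows carry it on the sense strand; this motif was chosen after the windows had been read, and the 2 windows not shown lack it there. Other motifs were sought on either strand. CCACCC, the core of sites bound by Krüppel-like factors, occurred in all 3 (31.5% of all windows). TGANTCA, a loose form of the AP-1 site with any base at N, occurred in Krt13 (7.81%). There it reads TGAATCA, whereas the AP-1 site itself has C or G at N. The p53-family half-site, a form that p63 also binds, occurred in Krt5 (8.36%). No match overlapped another in these 3 windows.

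Reads assigned to genes numbered 20378793 in OIR against 15741235 in the control. A fold change is given below as the ratio of read shares, OIR over control, with its exact 95% interval, and a level as FPKM, reads normalised to transcript length and library size. With 1 library per group no difference has a replicate check and no test was made. Intervals cover counting error only and leave out variation between animals and libraries. They can be too narrow even for counting error, since reads lacking molecular identifiers do not stand for independent molecules. A gene is called higher or lower by size alone, where log2(FPKM + 1) differs by at least 1 in either direction, a scale that understates changes at low FPKM. The rule was applied to genes that reached 1 FPKM in 1 library or more, called tested genes for short. In bulk samples fewer cells of a type and less RNA per cell cannot be told apart.

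All 10 keratins stood higher in OIR, as did 64.9% of all tested genes. Together the 10 keratins took 0.175% of reads in OIR (95% interval 0.173 to 0.177), whereas they took 0.0590% in the control (0.0578 to 0.0602), a ratio of 2.97 (2.90 to 3.04). By the size rule 6 of the 10 were called higher and none lower, where 3.07% of the 15883 tested genes were called higher and 0.718% lower. The 6 were Krt5, Krt15, Krt12, Krt4, Krt13 and Krt6a. Of the other 4, Krt14 lay just under the threshold with a difference of 0.99, Krt19 and Krt17 lay at 0.58 and 0.42, and Krt16 did not reach an FPKM of 1 in either library. Krt17 reached it in OIR alone, so as a tested gene it had to lie above 0. With CPM, TPM or a smaller pseudocount Krt14 was called higher too, at settings that also move the share of all genes called. The 9 tested keratins had a median difference of 1.29, against 0.11 for all tested genes and 0.08 for the 8106 tested genes whose length lay within the keratins' range of 791 to 2256 bases. Among genes that reached 5 FPKM in 1 library or more, 2.29% were called higher.

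**Figure D1:**
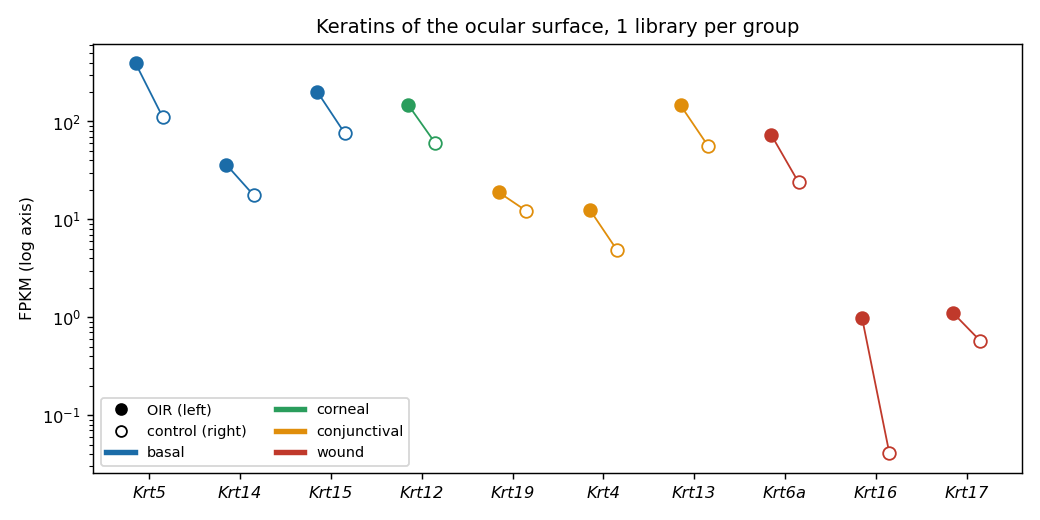
FPKM (log axis) of the 10 keratins in the OIR library (filled, left) and the control library (open, right), 1 library each, coloured by group. Every keratin stands higher in OIR, from Krt5 at 391 against 110 FPKM to Krt16 at 0.972 against 0.0406.

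The basal keratins held most of these reads. Krt5 (ENSMUSG00000061527, chromosome 15, 101707070 to 101712891, build mm10), the type II keratin of basal cells, had 17461 reads and 391 FPKM in OIR against 3786 reads and 110 FPKM in the control. Its ratio of 3.56 (3.44 to 3.69) ranked first among the 9 tested members, and its log2 difference of 1.82 stood 72nd from the highest of all tested genes. Krt15 (chromosome 11, 100131758 to 100135928), a type I basal keratin abundant in limbal and other progenitor-rich basal layers, had 201 FPKM in OIR against 76.3 in the control, from 4895 and 1436 reads, a ratio of 2.63 (2.48 to 2.79). Krt14 (chromosome 11, 100203162 to 100207548), the usual type I partner of Krt5, had 36.1 FPKM in OIR against 17.6 in the control, from 1036 and 391 reads, and a ratio of 2.05 (1.82 to 2.31). The 3 basal genes therefore did not differ by 1 common factor within counting error. Krt5 stood at 10.9 times the FPKM of Krt14 in OIR and 6.23 times in the control. That step of 1.74 (1.54 to 1.97) between libraries lies outside counting error, and it has no replicate check. The step of Krt5 over Krt15 was 1.35 (1.26 to 1.45).

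Krt12 (ENSMUSG00000020912, chromosome 11, 99415666 to 99422259), the type I keratin that marks corneal epithelium, had 5604 reads and 148 FPKM in OIR against 1747 reads and 59.9 FPKM in the control. Its ratio was 2.48 (2.35 to 2.62). Krt12 and Krt15 kept nearly the same proportion in both libraries, with 0.739 FPKM of Krt12 per FPKM of Krt15 in OIR against 0.785 in the control, a step of 0.941 (0.868 to 1.02). The step of Krt5 over Krt12 was 1.44 (1.35 to 1.53). The span of Krt12 holds the gene A830036E02Rik on the opposite strand, which had 358 reads in OIR against 122 in the control. The use of strand in counting is not stated, so the reads of both genes cannot be told apart with certainty.

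Among the conjunctival keratins the pair Krt4 and Krt13 kept 1 proportion. Krt13 (chromosome 11, 100117327 to 100121566), the type I partner, had 2360 reads and 146 FPKM in OIR against 707 reads and 56.8 FPKM in the control, or a ratio of 2.58 (2.37 to 2.81). Krt4 (chromosome 15, 101918536 to 101924735), the type II partner, had 546 reads and 12.6 FPKM in OIR against 163 reads and 4.86 FPKM in the control, or a ratio of 2.59 (2.17 to 3.10). The FPKM of Krt4 was 0.0858 of that of Krt13 in OIR against 0.0855 in the control, a step of 1.00 (0.824 to 1.23). Krt19 (chromosome 11, 100140810 to 100148665), a small type I keratin made in conjunctiva, limbus and many simple epithelia, stood apart from them. It had 377 reads and 18.8 FPKM in OIR against 189 reads and 12.2 FPKM in the control, and its ratio of 1.54 (1.29 to 1.84) has an interval below those of Krt4 and Krt13.

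The wound group rested almost wholly on 1 gene. Krt6a (ENSMUSG00000058354, chromosome 15, 101689932 to 101694307), a type II keratin, had 3342 reads and 72.7 FPKM in OIR against 846 reads and 23.8 FPKM in the control, or a ratio of 3.05 (2.83 to 3.29). Krt16 and Krt17, the type I keratins that accompany it in wounded skin, had far fewer reads than Krt6a. Krt16 (chromosome 11, 100246091 to 100248902) had 31 reads in OIR against 1 in the control, so that its ratio of 23.9 is bounded by 3.99 and 976. Krt17 (chromosome 11, 100256217 to 100261029) had 35 reads in OIR against 14 in the control, or a ratio of 1.93 (1.01 to 3.89). The FPKM of Krt6a was 74.8 times that of Krt16 and 65.6 times that of Krt17 in OIR, and 587 and 41.5 times in the control. Relative to Krt5, Krt6a stood lower in OIR than in the control, with a step of 0.857 (0.788 to 0.932).

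**Figure D2:**
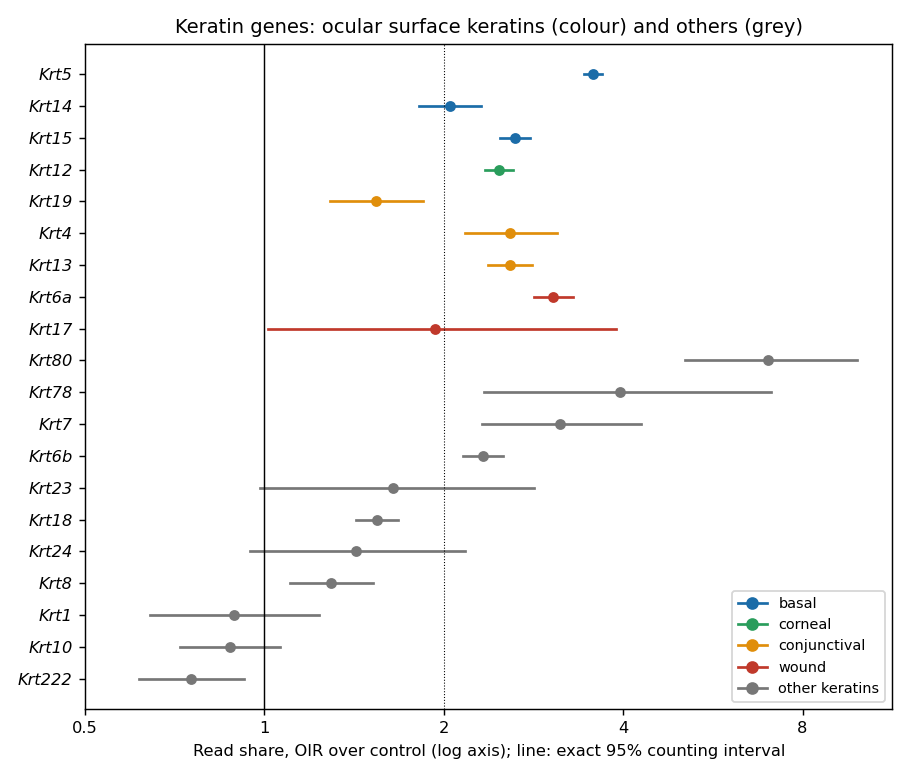
Ratio of read shares, OIR over control (log axis), with exact 95% counting intervals, for 9 of the 10 ocular surface keratins (colour) and the 11 other keratin genes that reached 1 FPKM in 1 library or more (grey). Krt16, at 23.9, is left out; Krt80 reaches 6.99 and Krt222 lies at 0.753.

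Some of these reads can be shared with close copies. Of the 50-base words in the GENCODE M21 transcripts of Krt6a, 49.5% also occur in transcripts of other genes, 43.6% in Krt6b, its neighbour on chromosome 15. The reads of Krt6a and Krt6b are therefore uncertain between them. Krt6b had 2604 reads in OIR against 864 in the control, or a ratio of 2.33 (2.15 to 2.52), and the sum of both genes had a ratio of 2.69 (2.54 to 2.84). Krt16 shared 37.6% of its words, most of them with Gm11597, Krt14 shared 14.4%, most with Krt16, and Krt5 shared 8.52%, most with Krt6a. Krt17 shared 3.99% and Krt15 0.666%. For Krt12, Krt19, Krt4 and Krt13 no shared word was found.

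Krt5 took a larger share of the keratin reads in OIR. Of the reads of the 10 genes, 48.9% were Krt5 in OIR (48.4 to 49.4), compared with 40.8% in the control (39.8 to 41.8). Krt12 took 15.7% in OIR (15.3 to 16.1), compared with 18.8% in the control (18.0 to 19.6), and Krt19 1.06% (0.953 to 1.17) and 2.04% (1.76 to 2.34). The share of Krt6a was 9.36% in OIR (9.06 to 9.67), compared with 9.12% in the control (8.54 to 9.72), within counting error. The summed type II keratins had a ratio of 3.44 (3.33 to 3.55) and the type I keratins 2.47 (2.39 to 2.55). Per FPKM of type I keratin there was 0.862 FPKM of type II keratin in OIR against 0.620 in the control. Both values depend on transcript length. The FPKM of the type I genes Krt13, Krt15, Krt19 and Krt14 rest on lengths shorter than their deposited gene lengths. At the deposited gene lengths both values would be higher. Without Krt5 the other 9 genes had a ratio of 2.56 (2.49 to 2.64).

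**Figure D3:**
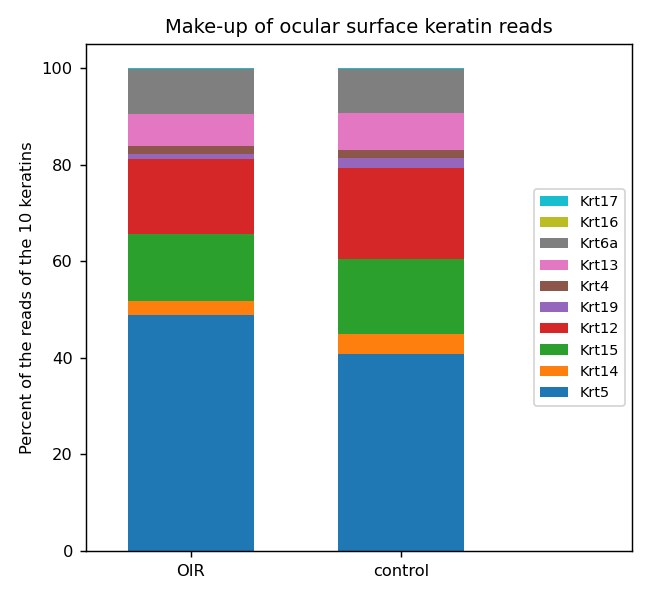
Share of each keratin in the reads of the 10 genes, in percent, in the OIR library (left) and the control library (right). Krt5, at the bottom of each bar, fills 48.9% in OIR against 40.8% in the control; Krt16 and Krt17 are too rare to be seen.

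The order of the deposited FPKM levels was the same in both libraries, with Krt5 first, then Krt15, Krt12, Krt13, Krt6a, Krt14, Krt19, Krt4, Krt17 and Krt16. Counting intervals of neighbours overlapped for Krt12 and Krt13 (144.6 to 152 and 140.6 to 152 FPKM in OIR, 57.1 to 62.8 and 52.7 to 61.1 FPKM in the control), and in OIR also for Krt17 and Krt16. All other neighbours lay apart by more than counting error in both libraries. The order in the middle depends on transcript length. The length implied by the deposited FPKM was 791 bases for Krt13, 1195 for Krt15, 982 for Krt19 and 1410 for Krt14, shorter than the table's gene lengths of 1654, 1700, 1576 and 1698. At the table's lengths Krt13 would stand at 70.0 FPKM in OIR against 27.2 in the control, and Krt15 at 141 and 53.7, below Krt12 in both libraries. Krt13 would then lie below Krt6a in OIR (72.7 FPKM) but above it in the control (23.8). Krt19, at 11.7 and 7.62 FPKM, would lie below Krt4 in OIR (12.6) but above it in the control (4.86). The order of these values would then differ between the libraries. Counting intervals at those lengths would overlap for both pairs in OIR, and for Krt13 and Krt6a in the control too. The ratios between libraries are untouched by this choice.

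**Figure D4:**
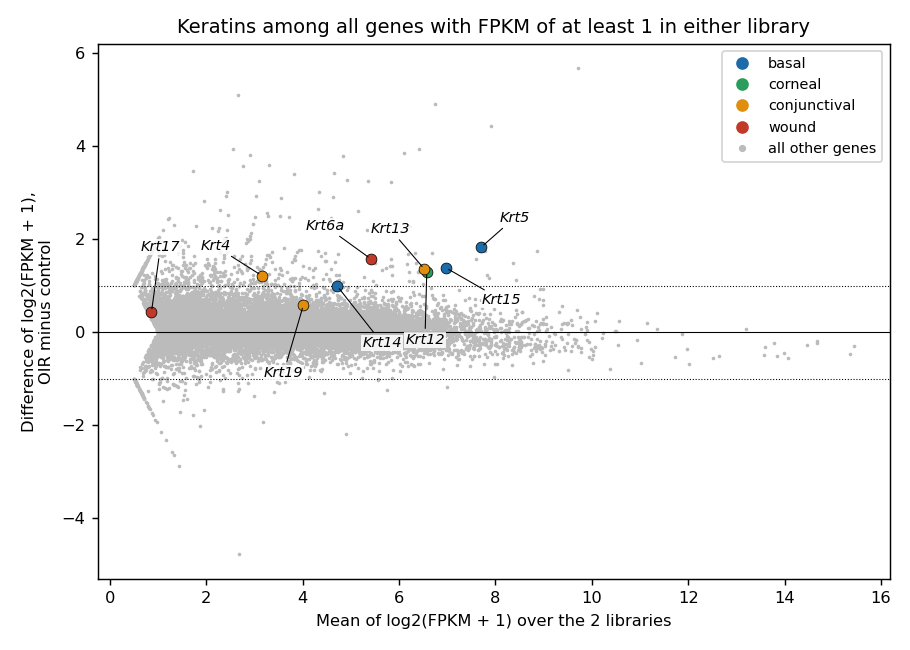
Difference of log2(FPKM + 1), OIR minus control, against the mean of log2(FPKM + 1) for all 15883 genes that reached 1 FPKM in 1 library or more (grey), with 9 of the ocular surface keratins in colour; dotted lines mark the size threshold of 1 in both directions. Krt5 lies at 1.82, 6 keratins lie above the upper line, Krt14 touches it at 0.99, and Krt19 and Krt17 lie inside.

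The other 41 keratin genes of the table mostly had few reads or none. In both libraries 27 of them had fewer than 10 reads, and 9 had none. Of the 11 that were tested 3 were called higher and none lower. Krt23 and Krt78 passed the filter only through OIR, so they had to lie above 0. Krt80, a type II keratin of many differentiating epithelia, had 380 reads in OIR against 42 in the control, or 10.5 and 1.504 FPKM. Its ratio of 6.99 (5.07 to 9.86) was above that of every tested ocular surface keratin. Krt7, found in simple and glandular epithelia, had 6.68 FPKM in OIR against 2.13 in the control, or a ratio of 3.13 (2.32 to 4.29). Krt6b is given above. Krt78, a type II keratin of stratified epithelia, had 87 reads in OIR against 17 in the control, or a ratio of 3.95 (2.33 to 7.09), but a difference of 0.77 at its low level. Krt8 and Krt18, the pair of simple epithelia, had ratios of 1.29 (1.10 to 1.52) and 1.54 (1.42 to 1.67). Krt23 and Krt24 had ratios of 1.65 (0.984 to 2.83) and 1.42 (0.945 to 2.17). Krt222 had a ratio of 0.753 (0.615 to 0.922).

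The list of 10 epidermal keratins was mixed. It holds Krt80, Krt78 and Krt24, given above, as well as Krt1 and Krt10; 5 of the 10 were tested, 1 (Krt80) was called higher, and the summed reads had a ratio of 1.70 (1.51 to 1.92). Krt1 and Krt10, the pair of the upper epidermis, had 84 and 231 reads in OIR against 73 and 204 in the control, and their ratios of 0.889 (0.642 to 1.23) and 0.875 (0.721 to 1.06) both had intervals that included 1. Krt79 of the same list, under the filter, had 2 reads in OIR against 13 in the control, or a ratio of 0.119 (0.0130 to 0.525). The 23 hair keratins found in the table had 68 reads in all in OIR against 51 in the control, or a ratio of 1.03 (0.706 to 1.51), and none was tested. Within that sum Krt75 had 35 reads in OIR against 12 in the control, or a ratio of 2.25 (1.14 to 4.77). Krt83 had 1 read in OIR against 9 in the control, or a ratio of 0.0858 (0.00196 to 0.619). Of 13 genes of the cornified envelope, the protein shell of dead skin cells, 4 were tested and none was called. Calml3, a calmodulin-like protein of differentiating epithelium and the highest of that list, had 135 FPKM in OIR against 77.1 in the control, or a ratio of 1.75 (1.65 to 1.85). Sbsn, which encodes suprabasin, had 292 reads in OIR against 107 in the control, or a ratio of 2.11 (1.68 to 2.66), and a difference of 0.96. Sprr1a had 11 reads in OIR against 1 in the control, or a ratio of 8.50 (1.23 to 366). The other tested genes, Lor of loricrin and the transglutaminase gene Tgm1, had ratios of 0.826 (0.481 to 1.42) and 0.830 (0.682 to 1.01), and Flg was listed at 0 in both libraries. The summed reads of the 13 genes had a ratio of 1.66 (1.58 to 1.75).

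Genes that anchor keratin filaments also stood higher. Of 14 such genes, 6 were called higher and none lower, where 3.07% and 0.718% of all tested genes were. All 14 lay above 0, as did 64.9% of all tested genes, and their median difference was 0.97. Lamb3 among them passed the filter only through OIR and so had to lie above 0. Dsp, the desmosomal plaque protein to which keratins attach, had 2678 reads in OIR against 290 in the control, or a ratio of 7.13 (6.32 to 8.08). Evpl, the plakin envoplakin, had a ratio of 5.11 (4.499 to 5.82), and the plakophilin genes Pkp1 and Pkp3 had 3.66 (3.12 to 4.31) and 3.76 (2.96 to 4.83). In the hemidesmosome, which ties basal keratins to the basement membrane, Itgb4 and Col17a1 had ratios of 3.64 (2.96 to 4.52) and 3.45 (3.14 to 3.79). Itga6, the integrin partner of Itgb4 that is also made by many other cells, had 1.06 (0.977 to 1.15).

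The presence of surface epithelium in both libraries was checked with 13 genes that are not keratins. All 13 were tested and lay above 0, Epcam by the filter itself, which it passed only through OIR; 6 were called higher, and their summed level was 754 FPKM in OIR against 393 in the control. Aldh3a1, an abundant corneal enzyme, had 403 FPKM in OIR against 120 in the control, or a ratio of 3.36 (3.21 to 3.52). The epithelial transcription factors Elf3, Klf5 and Ehf had ratios of 3.48 (2.83 to 4.31), 3.17 (2.203 to 4.68) and 2.32 (1.89 to 2.87), and Trp63, the regulator of basal cells, 2.66 (2.01 to 3.55) with a difference of 0.92. Cldn4, a tight junction claudin, had 3.29 (2.58 to 4.23), and Sfn, a 14-3-3 protein of stratified epithelium, 2.28 (2.02 to 2.57). Slurp1, a secreted corneal peptide, and Tkt, a transketolase abundant in cornea but made elsewhere too, had 1.17 (0.932 to 1.48) and 1.04 (1.00 to 1.08). The amount of surface epithelium in each sample as the source of the keratin differences was not tested.

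Genes of conjunctival goblet cells had few reads. Muc5ac, their gel mucin, had 1 read in OIR against none in the control, Foxa3 also 1 and none, and Spdef 13 and 11. Agr2, the only tested gene among these goblet cell genes, had 26 reads in OIR against 19 in the control, or a ratio of 1.06 (0.563 to 2.02). Muc4, a membrane mucin of corneal and conjunctival surface cells that was placed in the same list, had 2323 reads in OIR against 276 in the control, or a ratio of 6.501 (5.74 to 7.39). It was the only gene of this list of 7 called higher.

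No gene of the corneal stroma, lens, rod and skeletal muscle lists was called. The 9 genes of the corneal stroma list were all tested, and their median difference was 0.12, with 5 above 0. Of them only Kera, Lum and Dcn had been set as markers of keratocytes, the cells of corneal stroma. In whole eyeballs the list does not measure corneal stroma alone. The 9 genes were spread on both sides of 0, from -0.70 for Dcn to 0.61 for Col5a1. Lum, Dcn and Ogn had ratios of 0.812 (0.664 to 0.994), 0.606 (0.550 to 0.668) and 0.642 (0.582 to 0.709). Kera had a ratio of 1.12, with an interval that included 1. Ptgds, the highest by FPKM, had 603 FPKM in OIR against 792 in the control. Lens genes had a median of -0.49 over 8 tested genes, all below 0, with Cryaa at 35594 FPKM in OIR against 49529 in the control. Crystallins took 18.0% of reads in OIR against 23.8% in the control, which enters every read share; with these reads left out of the totals the keratin sum had a ratio of 2.76. The 7 rod genes had a median of 0.02. The 7 tested skeletal muscle genes had a median of 0.22, and 6 of them lay above 0. Mylpf, the highest, was the exception at 42.7 FPKM in OIR against 58.3 in the control, while Myh2 came closest to the threshold at 0.96, with 276 reads in OIR against 75 in the control, or a ratio of 2.84 (2.19 to 3.72). Of 6 gland genes only Aqp5, the water channel of corneal epithelium and lacrimal gland, was called higher, with a ratio of 2.71 (2.50 to 2.93). Lyz2 had 241 reads in OIR against 142 in the control, or a ratio of 1.31 (1.06 to 1.62). Pigr had 12 reads in OIR against 2 in the control, or a ratio of 4.63 (1.03 to 42.6). Ltf had 7 reads in OIR against 5 in the control, and 2 of the 6 gland genes had no read.

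**Figure D5:**
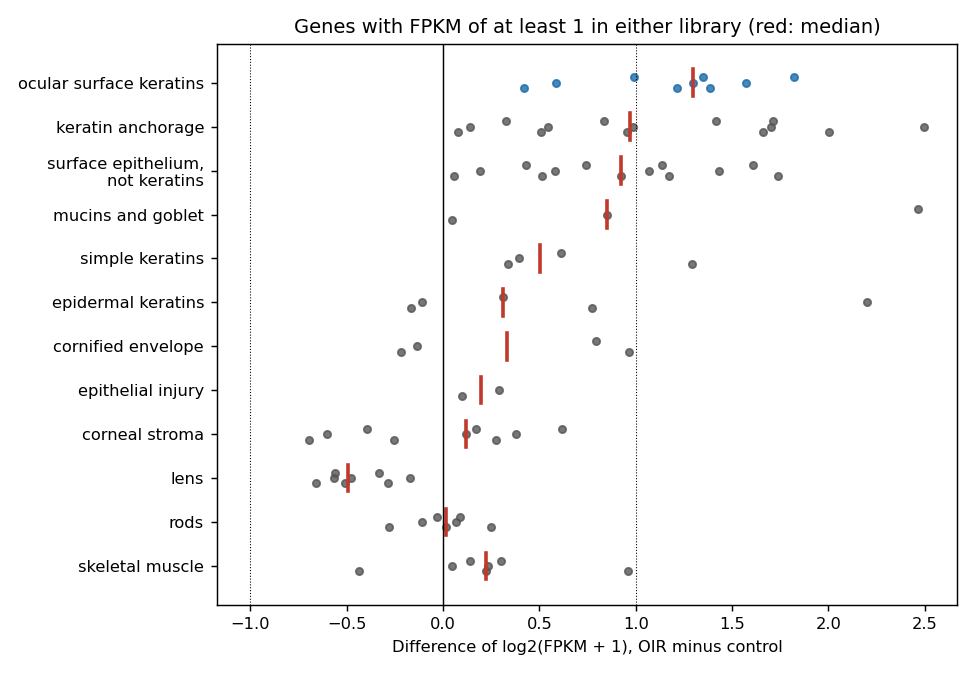
Difference of log2(FPKM + 1), OIR minus control, for each tested gene (points) of the ocular surface keratins and of 11 other gene lists, with the median as a red bar; dotted lines mark the size threshold. The keratin median is 1.29, that of keratin anchorage 0.97 and of other surface epithelium genes 0.92, against 0.02 for rods and -0.49 for lens.

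Genes linked to epithelial injury gave few reads beside the wound keratins. Of 10 such genes 9 were in the table, 2 were tested and none was called. Hbegf, a growth factor released in epithelial repair and the highest of the list, had 246 reads in OIR against 175 in the control, or a ratio of 1.09 (0.891 to 1.33). Epgn, the other tested gene, had a ratio of 1.54 (0.787 to 3.18) and passed the filter only through OIR. Among the 7 genes under the filter, Areg, Ereg and Il1rn had 13, 29 and 21 reads in OIR against 2, 8 and 6 in the control, with intervals above 1: ratios of 5.02 (1.14 to 45.8), 2.80 (1.25 to 7.09) and 2.70 (1.06 to 8.19). The intervals of the other 4 (S100a8, S100a9, Il1a and Il1b) included 1.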

How the data were processed

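RNA from whole mouse eyeballs was sequenced in 1 OIR and 1 control library, prepared from total RNA with a NEBNext Ultra kit, per the labels' protocols. The submitters' processing notes name HTSeq 0.6.1, TopHat2 2.0.12, Bowtie2 2.2.3 and build mm10; their settings, the annotation release and strand use were not given in the sources used here. Per the file headers the deposited table holds read counts, taken as raw, and FPKM values by the authors. It also holds a scaled signal deposited by the authors, counts divided by 1 factor per library, read only for those factors, and the authors' log2 fold change, which was positive for all 10 keratins (1.69 for Krt5 in the authors' deposited table). Another 2 columns of per-sample values were not used, and 5 broken lines were dropped.

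Differences of log2(FPKM + 1) and read-share ratios with Clopper-Pearson 95% intervals were computed with Python 3.11.15 and SciPy 1.17.1. The ratios and their intervals, but not the differences, were tried on simulated counts that vary by counting error alone. For a keratin of median length, 3 reads are 0.0945 FPKM in OIR and 0.122 in the control. Symbols that the table lacked, and transcripts for shared 50-base words, came from GENCODE M21; the 10 keratins' symbols are the table's own. The keratins and lists were chosen with earlier results of these data known. By the naming rule all 10 keratins, every other tested keratin and each listed gene called at 2-fold, or else the list's highest, are named; 1 gene that this rule takes is not reported here, and other named genes were chosen after their values were seen. No replicate could be left out, since each group is 1 library. Sequences are RefSeq's.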

Additional observations from a re-analysis of the deposited data

How the results depend on the processing

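The count of 6 keratins called higher stayed at 6 with no filter, over 10 keratins, where 1.83% of all genes with reads were called higher. It was also 6 with an FPKM filter of 5, over 8 keratins (2.29% of all genes tested there). Among those 8, Krt4 passed the stricter filter only through its OIR level, so under it Krt4 had to lie above 0. Values centred on the all-gene median gave 6 too (2.35%). The same held with crystallin reads (3%) or rRNA and mitochondrial reads (3.07%) left out of the totals. It held too with the authors' scaling factors (2.47%), which were added after seeing the data. The count was 7, with Krt14 added, with pseudocounts of 0.1 and 0.01, with CPM, with TPM and at a 1.5-fold threshold, where 5.82%, 6.28%, 2.69%, 4.04% and 9.11% of all tested genes were called higher, against 3.07% as reported. At a 4-fold threshold it was 0, where 0.346% of tested genes were called higher. The ratio of the summed keratin reads, 2.97, was 2.76 without crystallin reads in the totals, 2.70 with the authors' scaling factors and 2.56 without Krt5, a setting also added after seeing the data, and 2.96 without rRNA and mitochondrial reads. Over the scaling and pseudocount alternatives, the 72 values of single keratins all lay above 0, and 57 of them lay within the counting interval of the value reported; the filters cannot move a single gene's value and are not counted. The authors' factors shift every log2 ratio by -0.14. No paired analysis was possible because each group is 1 library, and for the same reason no replicate could be left out. Depth limits Krt16 and Krt17, which rest on 31 and 35 reads in OIR and 1 and 14 in the control.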

Other observations

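Keratins are 1 branch of the intermediate filament family, and the other branches differed among themselves in these libraries. Of 15 genes for other intermediate filaments, all tested, 2 were called higher and none lower, with a median difference of 0.17 and 9 above 0. Gfap, the filament of astrocytes and stressed Müller glia, had 144 FPKM in OIR against 43.9 in the control, or a ratio of 3.28 (3.08 to 3.48), and Nes, the nestin gene of progenitor, glial and vessel cells, had 12.3 and 3.30 FPKM, a ratio of 3.73 (3.24 to 4.32). Des and Prph, the filaments of muscle and of some neurons, had ratios of 1.91 (1.57 to 2.34) and 2.04 (1.59 to 2.66), and Vim, made by glia, lens and fibroblasts, 1.14 (1.10 to 1.17).

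The neurofilament genes Nefl, Nefm and Nefh of ganglion cell axons lay below 1, at 0.693 (0.660 to 0.728), 0.741 (0.704 to 0.781) and 0.666 (0.619 to 0.717). The lens filament genes Bfsp1 and Bfsp2, which encode filensin and phakinin, had 892 and 545 FPKM in OIR against 1006 and 664 in the control, ratios of 0.886 (0.874 to 0.899) and 0.820 (0.801 to 0.841). Among the nuclear lamins, Lmna had a ratio of 1.58 (1.39 to 1.79), Lmnb1 1.28 (1.15 to 1.42) and Lmnb2 1.14 (0.998 to 1.30). None of these ratios has a replicate check.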
